A study of Mus musculus with 24 samples.

Results

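Mouse granulocyte-monocyte progenitors (GMP) carrying the fusion oncogene NUP98-HOXA9 were compared directly with GMP carrying the fusion oncogene AML1-ETO. Messenger RNA was measured on 7 of the 24 arrays of the series, 3 labelled NUP98-HOXA9 GMP and 4 labelled AML1-ETO GMP, and these were chosen by their titles alone. All 7 samples were C57BL/6 GMP, spinoculated with an oncogene vector and collected 36 hours later as GFP-positive cells, so both groups had been sorted, infected and cultured. The other transduced GMP, 3 arrays of the empty GFP vector and 4 of MOZ-TIF2, entered the model fit, and the GFP vector is the level given beside the comparison. The remaining 10 arrays held leukemic GMP of the MOZ-TIF2 model (3), normal LSK stem and progenitor cells (3) and freshly sorted normal GMP (4). Nothing in the labels ties the replicates to separate mice, cultures or infections, so the p-values cover array-to-array spread, which may be technical. Each oncogene was driven from a vector, and neither the vector dose per cell nor the age or sex of the mice is given.

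GMP are committed progenitors that give rise to neutrophils and monocytes, and they normally have little capacity to renew themselves. NUP98-HOXA9 joins the phenylalanine-glycine repeats of a nuclear pore protein to the DNA-binding homeodomain of HOXA9, and in leukemia it is known for activating genes of the Hoxa cluster. AML1-ETO joins the DNA-binding runt domain of RUNX1 to the corepressor ETO (RUNX1T1), and it is known both for repressing RUNX1 and C/EBP-alpha targets and for activating others. The comparison asks which messenger RNAs separate the early states of one progenitor under these fusions.

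Values are log2 expression of single probe sets, and a gene's value is that of its brightest probe set, judged by the mean of all 24 arrays. A linear level of 60, or 5.91 on the log2 scale, was the background reading that the submitters state. A fold is called "at least" where the lower group's mean lay under that background, and it then sets the higher mean against the background. Differences are NUP98-HOXA9 minus AML1-ETO, tested with limma and adjusted by the Benjamini-Hochberg method over all 11377 probe sets tested. A gene is said to be higher only where the adjusted p was under 0.05.

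File name tags and a library that stood apart bear on the values below. The scan file names of NUP98-HOXA9 1 and 2, AML1-ETO 1 and the 3 GFP vector arrays end in a shared number, called tag A here, AML1-ETO 2 to 4 share another (tag B), and NUP98-HOXA9 3 has none; what the numbers mark is not stated. The second principal component of the 14 transduced arrays, with 23% of the variance, placed all 3 tag A arrays of the comparison between −33.1 and −22.3 and the other 4 between 13.2 and 17.2. Tag and group therefore overlap in part. That component did not follow the tag alone on the 14 arrays. The tag A arrays of MOZ-TIF2 (1 to 3) lay between 5.2 and 13.4, and those of the GFP vector between −14.4 and −9.5. Many results, though not all, are given also as the difference within tag A (NUP98-HOXA9 1 and 2 minus AML1-ETO 1) and outside it (NUP98-HOXA9 3 minus AML1-ETO 2 to 4). NUP98-HOXA9 1 also stood apart by Xist, the X-inactivation RNA, at 11.71 against 5.38 to 5.97 on the other 6 arrays, while the Y-linked Eif2s3y was at 8.05 there and at 8.52 to 9.61 on the others. Between 47.2% and 48.3% of probe sets exceeded the background on each of the 7 arrays. The 3' to 5' difference of the Gapdh control probe sets, a sign of RNA length, was 2.58 to 4.24 with NUP98-HOXA9 and 2.50 to 4.07 with AML1-ETO.

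**Figure D1:**
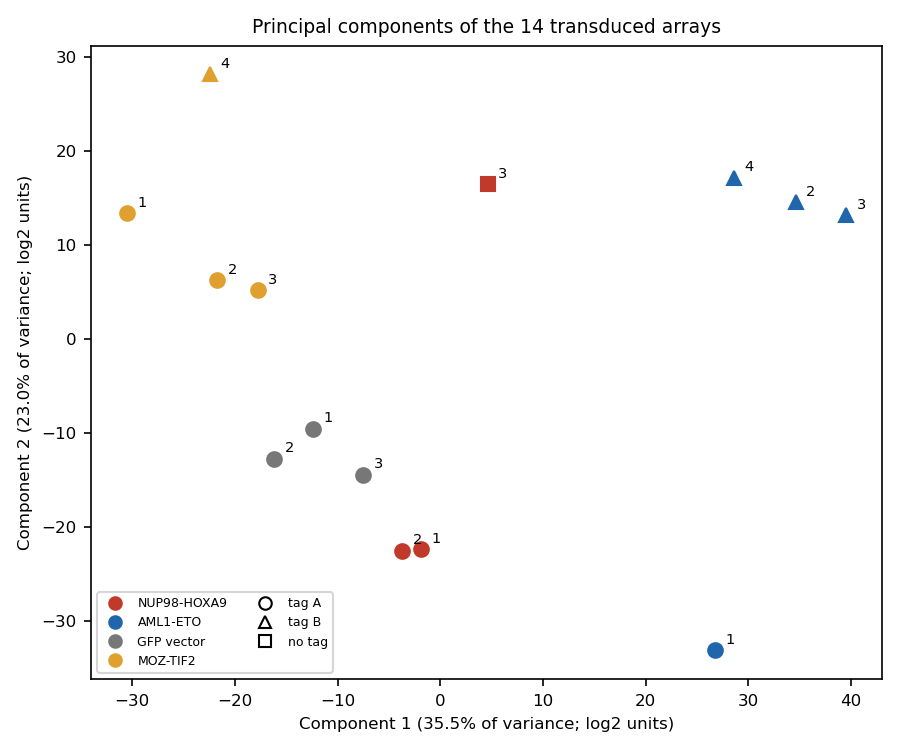
Principal components of the 14 transduced arrays, computed on log2 values; each point is 1 array, numbered by replicate, with colour for the oncogene and shape for the file name tag. The AML1-ETO arrays lie at the right along component 1 (35.5% of variance). Component 2 sets the tag A arrays of NUP98-HOXA9 and AML1-ETO (−33.1 to −22.3) apart from the other 4 of these groups (13.2 to 17.2). The tag A arrays of the GFP vector lie at −14.4 to −9.5 on it and those of MOZ-TIF2 at 5.2 to 13.4.

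Genes that define GMP were over the background in both groups, and granule genes among them were high. Myeloperoxidase (Mpo), the main primary granule enzyme, was at 12.94 ± 0.16 (SD, n = 3) with NUP98-HOXA9 and 12.64 ± 0.28 (SD, n = 4) with AML1-ETO. The granule proteases Elane (12.71 and 12.21), Prtn3 (13.30 and 13.01) and Ctsg (13.12 and 13.09) did not pass the test. The receptors Csf1r (12.89 and 13.16), Csf3r (9.09 and 9.21), Fcgr3 (9.85 and 10.07) and Kit (8.43 and 8.05) did not pass it either. Freshly sorted normal GMP had Kit higher, at 10.27 ± 0.44, and Csf1r lower, at 11.62 ± 0.25 (both SD, n = 4). Of the 10 genes used to check the GMP label, only Cebpa and Cd34 differed past the threshold, and both are described below. Defining genes of red cells (Klf1, Hba-a1), of T cells (Cd3e) and of B cells (Pax5, Ebf1) were under the background on all 7 arrays. Other markers of these lines were not. In each group, 2 of 15 erythroid markers exceeded the background on every array. Of 22 lymphoid markers, Cd79b (7.06 to 8.45) exceeded it on all 7 arrays and Cd28 (6.43 to 6.62) on the NUP98-HOXA9 arrays.

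NUP98-HOXA9 and AML1-ETO cells differed at 823 of 11377 probe sets (7.23%), with 298 higher in NUP98-HOXA9 (2.62%) and 525 higher in AML1-ETO (4.61%). Counted once per gene, 575 of 7103 genes (8.10%) differed, 213 higher in NUP98-HOXA9 (3.00%) and 362 higher in AML1-ETO (5.10%). The differences on the AML1-ETO side also reached further. Among the 213 genes the median difference was 0.86, with 8 genes at 2 or more and a largest difference of 2.84. Among the 362 genes the median size was 0.79, with 20 genes at 2 or more and a largest of 5.67. The arrays of the groups did not overlap for 1213 genes (17.1%), and 543 genes (7.64%) both passed the test and had no overlap.

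How many probe sets passed, and on which side, depended on single arrays and on the tag. Without AML1-ETO 1, the tag A array of its group, 1393 probe sets passed, while 408 passed without NUP98-HOXA9 1, 442 without NUP98-HOXA9 2 and 494 without AML1-ETO 3. With the tag as a factor 481 passed, 239 higher in NUP98-HOXA9 and 242 higher in AML1-ETO. NUP98-HOXA9 3 is the only untagged array in that fit of 14, so it had a term of its own and did not inform the difference. Wherever a value is given with the tag as a factor, the NUP98-HOXA9 side therefore rests on NUP98-HOXA9 1 and 2. A call lost there cannot be ascribed to the tag rather than to the loss of that array. Within tag A alone 719 were higher in NUP98-HOXA9 and 366 in AML1-ETO, but there the AML1-ETO arm is AML1-ETO 1 alone, which the fit assumes to vary like the arrays of the other groups, so these calls describe that array. Quantile normalization gave 468 higher in NUP98-HOXA9 and 520 in AML1-ETO, against 298 and 525 as deposited, moving the share on the NUP98-HOXA9 side from 36.2% to 47.4%. All 76 named genes past the threshold had the same sign within tag A and outside it, which for those without overlap follows from how they were chosen.

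**Figure D2:**
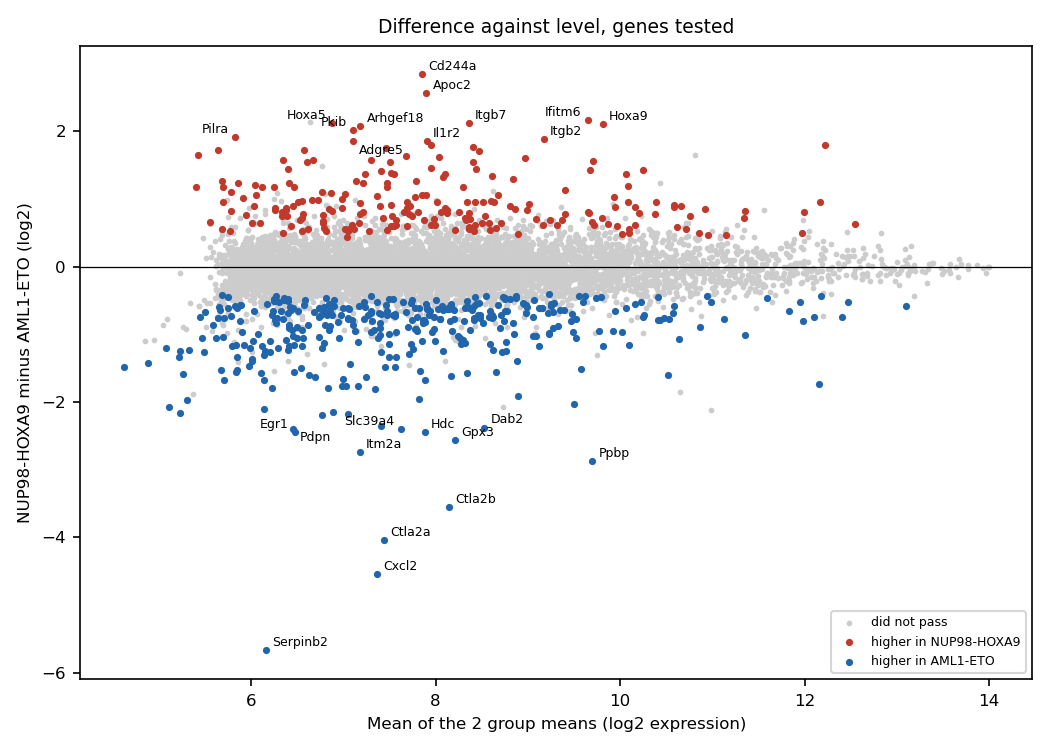
Difference of NUP98-HOXA9 minus AML1-ETO (log2) against the mean level of both groups (log2) for the 7103 genes tested, 1 point per gene, with genes past the threshold in colour and the largest in each direction named. The differences higher in AML1-ETO reach 5.67 (Serpinb2), while the largest in the other direction is 2.84 (Cd244a).

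The deposited arrays were first read for the genes from which the fusions are built. Hoxa9 was measured at 10.69, 10.73 and 11.16 with NUP98-HOXA9 and at 8.58, 9.09, 8.34 and 9.02 with AML1-ETO. The groups did not overlap, and Hoxa9 was 4.29-fold higher with NUP98-HOXA9 (difference 2.10, SE 0.25, limma adjusted p = 1.90e-04; 2.13 within tag A and 2.35 outside it). A second Hoxa9 probe set differed by 1.03 (adjusted p = 0.00328). Whether either probe set also reads the transcript of the vector was not tested. Nup98, whose product lines the nuclear pore, was at 6.37 ± 0.12 (SD, n = 3) and 6.77 ± 0.15 (SD, n = 4) and did not pass (adjusted p = 0.0556).

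Runx1, the DNA-binding partner in AML1-ETO and a master regulator of blood stem cell formation, was at 7.24, 7.15 and 8.00 with NUP98-HOXA9 and at 7.05, 8.02, 8.33 and 7.88 with AML1-ETO. These arrays overlapped and the difference of −0.35 did not pass (limma adjusted p = 0.484). Its probe sets disagreed, since another was 0.62 lower with NUP98-HOXA9 (−0.62, adjusted p = 0.00886) and another differed by 0.08 (adjusted p = 0.881). Runx1t1, the ETO partner, lay between 3.17 and 3.46 on all 7 arrays, under the background, and was not tested. Of the other tested genes in the partner list (8 tested in all), only Cbfa2t3 passed. The share of the list past the threshold was 25%, beside 8.10% of all genes. Cbfa2t3 (ETO2), a corepressor of the same family as ETO, was 1.82-fold higher with NUP98-HOXA9 (7.42 ± 0.06, n = 3, against 6.55 ± 0.21, n = 4, both SD; adjusted p = 0.00149), and a further 1 of its 4 probe sets passed. The GFP vector level of Cbfa2t3 was 7.32 ± 0.07 (SD, n = 3).

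The 12 largest differences higher in NUP98-HOXA9 were those of Cd244a, Apoc2, Ifitm6, Itgb7, Hoxa5, Hoxa9, Arhgef18, Pkib, Pilra, Itgb2, Adgre5 and Il1r2. Cd244a, the SLAM-family receptor 2B4, was at 9.29, 9.23 and 9.28 with NUP98-HOXA9 and at 6.83, 7.03, 6.41 and 5.45 with AML1-ETO. The NUP98-HOXA9 arrays were nearly equal to each other, and Cd244a was 7.15-fold higher there (difference 2.84, SE 0.61, limma adjusted p = 0.0115; 2.43 within tag A, 2.99 outside). With the tag as a factor its adjusted p was 0.0887. A second Cd244a probe set differed by 2.18 (adjusted p = 0.00403). Apoc2, an apolipoprotein that activates lipoprotein lipase, was at 9.31, 8.70 and 9.51 against 7.33, 6.43, 6.47 and 6.23. All NUP98-HOXA9 arrays lay above all AML1-ETO arrays, a 5.9-fold difference (2.56, SE 0.29, adjusted p = 1.48e-04; 1.68 within tag A, 3.14 outside). Ifitm6, of the interferon-induced transmembrane family, was at 10.59, 10.15 and 11.45 against 9.03, 8.91, 8.47 and 7.88. It was 4.46-fold higher with NUP98-HOXA9 (adjusted p = 7.20e-04; 1.34 within tag A, 3.03 outside).

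The promoter windows of these 3 genes, the largest on the NUP98-HOXA9 side, are shown from 250 bases before to 50 bases after the RefSeq start in GRCm38.p6, read in the direction of the gene. Capitals mark matches to any of 5 motifs searched on both strands: RUNX (TGTGGT), HOX-PBX (TGATTTAT), AP-1 (TGANTCA), NF-kB (GGGANTTTC, the core of the site) and E2F (TTTCCCGC). Cd244a lies at chr1:171558943-171559242 on the plus strand, Apoc2 at chr7:19677892-19678191 on the minus strand and Ifitm6 at chr7:141016843-141017142 on the minus strand.
Cd244a: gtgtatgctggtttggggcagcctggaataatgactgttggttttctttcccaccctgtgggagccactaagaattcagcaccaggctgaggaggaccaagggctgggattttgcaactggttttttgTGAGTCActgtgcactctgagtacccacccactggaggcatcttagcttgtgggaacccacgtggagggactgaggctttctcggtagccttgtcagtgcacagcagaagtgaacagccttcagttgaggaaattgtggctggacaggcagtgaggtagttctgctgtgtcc
Apoc2: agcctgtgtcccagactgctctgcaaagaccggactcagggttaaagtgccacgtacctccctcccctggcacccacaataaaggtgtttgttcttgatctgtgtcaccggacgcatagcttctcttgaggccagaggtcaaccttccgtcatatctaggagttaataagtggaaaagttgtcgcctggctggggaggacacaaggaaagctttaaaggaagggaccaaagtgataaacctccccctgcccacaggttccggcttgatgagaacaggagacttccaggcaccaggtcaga
Ifitm6: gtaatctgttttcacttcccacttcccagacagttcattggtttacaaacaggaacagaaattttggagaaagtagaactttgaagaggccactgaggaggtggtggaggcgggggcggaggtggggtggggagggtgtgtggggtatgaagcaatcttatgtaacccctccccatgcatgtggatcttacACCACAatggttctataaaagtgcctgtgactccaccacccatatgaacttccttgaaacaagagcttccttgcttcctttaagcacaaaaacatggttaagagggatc
The Cd244a window holds an AP-1 match that starts at −122, the Ifitm6 window a RUNX match on the opposite strand at −59, and the Apoc2 window none of the 5. A match is a description of these letters only.

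Integrins and adhesion receptors filled 3 more places among the 12 largest. Itgb7, the beta chain of gut-homing integrins, was at 9.21, 9.21 and 9.85 with NUP98-HOXA9 and at 7.83, 7.34, 7.33 and 6.71 with AML1-ETO, 4.35-fold higher in the former (adjusted p = 0.00105; 1.38 within tag A, 2.72 outside). Itgb2, the beta-2 chain that the leukocyte integrins Mac-1 and LFA-1 share, was at 10.06, 9.76 and 10.51 against 8.58, 8.44, 7.88 and 8.02. Its 3.67-fold difference had an adjusted p of 1.04e-04 and was 1.33 within tag A and 2.39 outside. Adgre5 (CD97), an adhesion G protein-coupled receptor, was at 8.17, 7.80 and 8.12 against 6.28, 6.39, 5.87 and 6.16, a 3.61-fold difference (adjusted p = 1.71e-04; 1.70 and 1.98).

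Of the other 6, Hoxa5 and Hoxa9 are described elsewhere with the fusion partners and the Hox genes. Pilra, an inhibitory immunoglobulin-like receptor of myeloid cells, was at 6.69, 6.68 and 6.97 with NUP98-HOXA9 and under the background on all 4 AML1-ETO arrays (4.40 to 5.40), at least 1.83-fold higher (adjusted p = 1.04e-04). Il1r2, the decoy receptor that binds interleukin 1 without signalling, was at 8.89, 8.75 and 8.83 against 7.66, 6.66, 6.28 and 7.30, 3.61-fold higher (adjusted p = 0.0177). That call was lost without NUP98-HOXA9 1 (adjusted p = 0.0685), NUP98-HOXA9 2 (0.0549) or AML1-ETO 3 (0.0582), and with the tag as a factor (0.13). The Il1r2 difference was 1.16 within tag A and 2.09 outside. Arhgef18, a guanine nucleotide exchange factor, was 4.19-fold higher (8.22 ± 0.29, n = 3, against 6.15 ± 0.33, n = 4; adjusted p = 1.22e-04). Pkib, an inhibitor of protein kinase A, was 4.03-fold higher (8.11 ± 0.20 against 6.10 ± 0.76; adjusted p = 8.54e-04), with AML1-ETO 1 lowest at 5.03.

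The GFP vector arrays, which both following contrasts share, are all of tag A, while 3 of the 4 AML1-ETO arrays are of tag B, so AML1-ETO against the vector is in large part also tag B against tag A. AML1-ETO lay below the vector past the threshold for 8 of the 12 (Apoc2, Ifitm6, Itgb7, Arhgef18, Pilra, Itgb2, Adgre5 and Il1r2), by 1.46 (Il1r2) to 2.36 (Ifitm6). NUP98-HOXA9 lay above the vector past the threshold for Hoxa5 and Hoxa9 only. For Itgb2 the vector level was 10.22 ± 0.12 (SD, n = 3), beside 10.11 ± 0.38 with NUP98-HOXA9 and 8.23 ± 0.33 with AML1-ETO. Within tag A, AML1-ETO 1 alone lay below all 3 vector arrays for 11 of the 12 genes and above them for Hoxa5. Its difference from the vector mean was smaller than that of the 4 AML1-ETO arrays for 8 of the 12, among them Apoc2 (−0.90 beside −1.61) and Il1r2 (−0.77 beside −1.46). With 1 array on that side, these within-tag values carry no test.

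**Figure D3:**
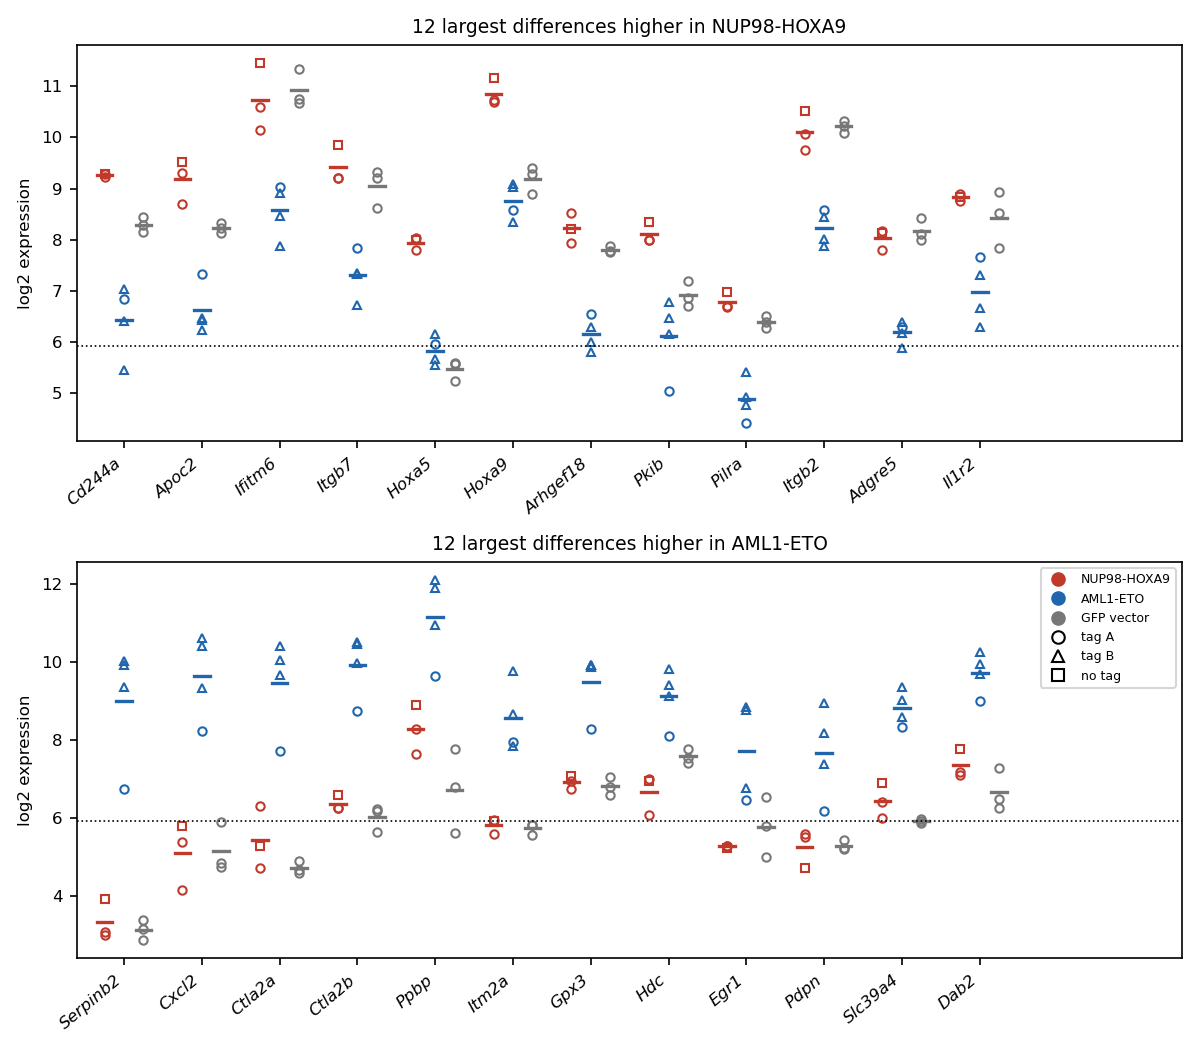
Log2 expression by array of the 12 largest differences in each direction, for NUP98-HOXA9 (3 arrays), AML1-ETO (4) and the GFP vector (3); horizontal bars are group means, shapes are file name tags, and the dotted line is the background of 5.91. In the upper panel the vector lies near NUP98-HOXA9 for genes such as Itgb2 (10.22 and 10.11); in the lower panel it lies near NUP98-HOXA9 for genes such as Serpinb2 (3.12 and 3.33).

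The 12 largest differences higher in AML1-ETO were larger, and for 6 of them the NUP98-HOXA9 mean lay under the background. Serpinb2 (PAI-2), an inhibitor of plasminogen activators, was at 3.07, 3.00 and 3.92 with NUP98-HOXA9 and at 6.73, 9.34, 9.91 and 10.03 with AML1-ETO. Serpinb2 was thus under the background on all 3 of the former and over it on all 4 of the latter, with the tag A array lowest, and it was at least 8.55-fold higher with AML1-ETO (adjusted p = 1.04e-04; −3.69 within tag A, −5.84 outside). The chemokine Cxcl2, which draws neutrophils, was at 4.13, 5.37 and 5.79 against 8.22, 10.40, 10.62 and 9.33, at least 13.3-fold higher with AML1-ETO (adjusted p = 4.96e-04; −3.47 and −4.32). Ctla2a, an inhibitor of cathepsin-like proteases, was at 6.30, 4.70 and 5.26 against 7.72, 9.67, 10.05 and 10.40, at least 11.7-fold higher (adjusted p = 0.00139; −2.22 and −4.78). With the tag as a factor the adjusted p of Ctla2a was 0.0552. Ctla2b, its near-identical neighbour on chromosome 13, was at 6.25, 6.25 and 6.57 against 8.74, 9.96, 10.46 and 10.50, an 11.8-fold difference (adjusted p = 1.04e-04). Since probes of the Ctla2 genes may bind both transcripts, which of them rose is uncertain. Freshly sorted LSK cells had Ctla2a at 10.64 ± 0.08 (SD, n = 3), and normal GMP had it at 6.52 ± 1.08 (SD, n = 4).

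The promoter windows of the 3 largest on the AML1-ETO side follow in the same form, Serpinb2 at chr1:107511173-107511472 on the plus strand, Cxcl2 at chr5:90903649-90903948 on the plus strand and Ctla2a at chr13:60936576-60936875 on the minus strand.
Serpinb2: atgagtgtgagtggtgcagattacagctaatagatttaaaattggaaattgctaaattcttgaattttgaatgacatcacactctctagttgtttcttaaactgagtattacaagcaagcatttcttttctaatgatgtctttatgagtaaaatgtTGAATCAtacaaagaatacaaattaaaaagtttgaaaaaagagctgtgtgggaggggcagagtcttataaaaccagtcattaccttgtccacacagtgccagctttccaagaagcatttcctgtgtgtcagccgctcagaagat
Cxcl2: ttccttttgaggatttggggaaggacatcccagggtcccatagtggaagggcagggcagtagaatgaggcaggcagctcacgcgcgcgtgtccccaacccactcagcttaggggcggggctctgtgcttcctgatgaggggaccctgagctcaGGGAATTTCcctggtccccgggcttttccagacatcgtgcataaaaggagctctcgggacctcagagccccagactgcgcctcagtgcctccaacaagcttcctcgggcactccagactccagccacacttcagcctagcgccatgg
Ctla2a: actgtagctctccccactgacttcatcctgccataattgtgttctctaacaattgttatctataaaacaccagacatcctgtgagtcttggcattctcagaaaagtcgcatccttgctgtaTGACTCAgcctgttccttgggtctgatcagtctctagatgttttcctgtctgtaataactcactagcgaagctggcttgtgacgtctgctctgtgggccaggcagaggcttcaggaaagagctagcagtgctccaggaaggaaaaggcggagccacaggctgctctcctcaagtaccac
The Serpinb2 window holds an AP-1 match at −94, the Cxcl2 window an NF-kB match at −97 and the Ctla2a window an AP-1 match at −129. Serpinb2 and Ctla2a each have 2 RefSeq windows. Only the first listed window of a gene was searched, here and for the shares below, so these positions refer to 1 of their 2 starts. Over promoters of whole groups, the RUNX letters occurred in 15.0% of windows of genes higher in NUP98-HOXA9 (26 of 173) and in 9.03% of those higher in AML1-ETO (27 of 299), beside 11.8% of the 5875 tested genes with a window and 16.9% of all 27025 windowed genes. The AP-1 letters occurred in 5.20% (9 of 173) and 7.02% (21 of 299), beside 4.89% and 7.93%. HOX-PBX letters occurred in 0 of 173 and 1 of 299 windows, NF-kB letters in 1 and 2, and E2F letters in 1 and 0, beside 0.323%, 0.919% and 2.33% of tested genes and 1.04%, 1.15% and 1.11% of all windowed genes. These shares are descriptions, and no test was made of them.

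The remaining genes of that side were of mixed function. Ppbp, the platelet chemokine precursor of CXCL7, was at 8.26, 7.63 and 8.89 with NUP98-HOXA9 and at 9.64, 11.88, 10.94 and 12.09 with AML1-ETO, 7.36-fold higher in the latter (adjusted p = 0.0132). The call on Ppbp was lost without NUP98-HOXA9 1 (adjusted p = 0.0504) or NUP98-HOXA9 2 (0.0691), within tag A (−1.69, adjusted p = 0.249) and with the tag as a factor (0.0996). Itm2a, a membrane protein on the X chromosome, was at 5.93, 5.59 and 5.92 against 7.93, 8.67, 9.76 and 7.84, at least 6.24-fold higher (adjusted p = 2.87e-04), but its second probe set did not pass (−0.62, adjusted p = 0.12). Gpx3, a secreted glutathione peroxidase, was at 6.74, 6.94 and 7.07 against 8.26, 9.92, 9.86 and 9.91, 5.94-fold higher (adjusted p = 2.87e-04), and AML1-ETO 1 was well below the other 3. Pdpn (podoplanin), the ligand of the platelet receptor CLEC-2, was at 5.57, 5.50 and 4.70 against 6.16, 7.37, 8.16 and 8.93, at least 3.36-fold higher (adjusted p = 0.00437), though only −0.63 apart within tag A beside −3.45 outside.

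Slc39a4 and Dab2 differed by similar amounts within tag A and outside it. Slc39a4 (ZIP4), a zinc importer, was at 5.98, 6.39 and 6.90 with NUP98-HOXA9 and at 8.33, 8.59, 9.01 and 9.35 with AML1-ETO, 5.27-fold higher (adjusted p = 1.04e-04; −2.15 within tag A, −2.08 outside). Dab2, an endocytic adaptor, was at 7.08, 7.18 and 7.76 against 8.99, 9.69, 9.94 and 10.25, 5.19-fold higher (adjusted p = 2.04e-04; −1.86 and −2.20). A second Dab2 probe set also passed (−2.14, adjusted p = 1.04e-04). Set beside the GFP vector, all 12 genes lay above it with AML1-ETO past the threshold, by 1.54 (Hdc) to 5.89 (Serpinb2), in the same contrast of mostly tag B with tag A arrays. Within tag A, AML1-ETO 1 lay above all 3 vector arrays for 11 of the 12, and for Egr1 it was inside their range (6.44, beside 5.00 to 6.52). Its difference from the vector mean was smaller than that of the 4 arrays for all 12, from 0.53 (Hdc) to 3.61 (Serpinb2), and was 0.88 beside 2.38 for Pdpn. With NUP98-HOXA9 they lay between −0.90 (Hdc) and 1.54 (Ppbp) of the vector, with adjusted p from 0.416 to 0.991.

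Of the Hoxa cluster and its cofactors, 4 of 12 genes on the array were over the background in enough arrays to be tested, and 3 were higher with NUP98-HOXA9, all of them Hoxa genes. Of all genes, 3.00% were higher there. The list's median difference was 1.27, beside −0.05 over all genes tested. Hoxa5, the homeobox gene that lies near Hoxa9 in the cluster, was at 8.03, 7.80 and 7.99 with NUP98-HOXA9 and at 5.95, 6.14, 5.54 and 5.65 with AML1-ETO, at least 4.08-fold higher (adjusted p = 1.04e-04; 1.97 within tag A, 2.21 outside). Hoxa5 was 2.48 above the GFP vector with NUP98-HOXA9 (adjusted p = 1.37e-04) and 0.36 above it with AML1-ETO (adjusted p = 0.247). Hoxa7 was at 7.16, 7.25 and 7.37 against 7.02, 6.78, 6.76 and 6.75, a difference of 0.43 (adjusted p = 0.0335) that was 0.19 within tag A. The cofactor Pbx2 did not pass (−0.50, adjusted p = 0.164). The HOXA9 cofactor Meis1 had means of 5.09 and 4.85, both under the background, and was not tested, as were Hoxa10 (3.29 and 2.99) and Hoxa3 (5.43 and 5.10).

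Of 15 tested stem cell genes, 3 were higher with AML1-ETO (Cd34, Bmi1 and Sox4), beside 5.10% of all genes, and none with NUP98-HOXA9. The median difference was −0.24, but 0.03 within tag A and −0.42 outside it. None of the 3 passed in any of the 3 planned fits by tag, with the 7 arrays alone or with all 24, and each also lost its call without NUP98-HOXA9 1 or NUP98-HOXA9 2 (limma adjusted p from 0.083 to 0.227) and without AML1-ETO 3 or AML1-ETO 4 (0.0666 to 0.122). With tag A against all other arrays as the factor, a setting chosen after seeing the data, all 3 passed (0.0313 to 0.0474). Cd34, the sialomucin that marks stem and progenitor cells, was at 8.29, 8.10 and 8.21 with NUP98-HOXA9 and at 8.64, 9.78, 9.30 and 9.55 with AML1-ETO, 2.17-fold higher (adjusted p = 0.0318). The difference was −0.45 within tag A and −1.34 outside, and the GFP vector was at 7.34 ± 0.10 (SD, n = 3). Bmi1, the Polycomb protein needed for stem cell self-renewal, was 1.56-fold higher (7.76 ± 0.12 against 8.41 ± 0.21; adjusted p = 0.0407), and its second probe set did not pass (−0.63, adjusted p = 0.181). With no filter on low values the adjusted p of Bmi1 was 0.0568, and with the replicate number as a block it was 0.0609. Sox4, a transcription factor of progenitors, was at least 2.15-fold higher by 1 probe set (adjusted p = 0.0454), whose arrays overlapped, while its other 2 tested probe sets did not pass (−0.24 and −0.60, adjusted p = 0.322 and 0.297). The stem cell genes Kit, Lmo2, Erg and Gata2 did not pass, with differences of 0.38, 0.02, −0.01 and −0.52.

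Among 19 tested myeloid transcription factors, 4 were higher with NUP98-HOXA9 and 1 with AML1-ETO, beside 3.00% and 5.10% of all genes. The median difference was 0.29. Cebpa, which encodes C/EBP-alpha and is needed to form GMP, was at 9.27, 9.10 and 9.17 with NUP98-HOXA9 and at 8.06, 7.89, 6.99 and 7.61 with AML1-ETO. No array overlapped, and Cebpa was 2.92-fold higher with NUP98-HOXA9 (difference 1.55, SE 0.20, adjusted p = 3.87e-04; 1.13 within tag A, 1.68 outside). Its vector level was 9.08 ± 0.18 (SD, n = 3). Nfe2, a basic leucine zipper factor of the megakaryocytic and myeloid lines, was at 8.46, 7.99 and 8.82 against 7.19, 7.24, 6.96 and 7.28, 2.39-fold higher (adjusted p = 0.00281). Cebpg, another C/EBP factor, was 1.56-fold higher (9.03 ± 0.09 against 8.39 ± 0.12; adjusted p = 0.00539), and its second tested probe set did not pass (0.53, adjusted p = 0.118). Mef2c, a MADS-box factor of monocytic and lymphoid progenitors, was at 8.31, 8.40 and 8.73 against 6.88, 7.99, 7.85 and 7.42 (difference 0.95, adjusted p = 0.0395), and the vector was at 6.88 ± 0.14. Egr2, an early growth response factor of the macrophage line, was higher with AML1-ETO (−1.42, adjusted p = 0.037), but both means were under the background and the arrays overlapped. Spi1 (PU.1), Irf8 and Gfi1, which direct the choice between neutrophil and monocyte, did not pass, with differences of 0.62, 0.88 and 0.44.

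Of 16 tested primary granule genes, 1 was higher with NUP98-HOXA9 and 2 with AML1-ETO (median 0.05), beside 3.00% and 5.10% of all genes. Gstm1, a glutathione transferase, was 1.84-fold higher with NUP98-HOXA9 (11.02 ± 0.18 against 10.14 ± 0.27; adjusted p = 0.0174), and 2 of its 4 probe sets passed. Ctsc (cathepsin C), which activates the granule proteases, was 1.68-fold higher with AML1-ETO (12.03 ± 0.03 against 12.78 ± 0.43; adjusted p = 0.0246; −0.23 within tag A). Lyz2 (lysozyme) was 1.51-fold higher with AML1-ETO (12.80 ± 0.15 against 13.39 ± 0.17; adjusted p = 0.0302).

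Of 23 tested genes of secondary granules and neutrophil maturation, 5 were higher with NUP98-HOXA9 and 1 with AML1-ETO (median 0.43, and 17 of 23 differences positive). Of all genes, 3.00% and 5.10% were. Beside Itgb2 and Il1r2, Adam8, a surface metalloprotease of leukocytes, was at 8.21, 8.08 and 8.53 with NUP98-HOXA9 and at 6.41, 7.70, 6.32 and 6.51 with AML1-ETO, 2.9-fold higher (adjusted p = 0.00442). Ncf1 (p47phox), a subunit of the phagocyte oxidase, was 2.08-fold higher (adjusted p = 0.0296), and Anxa1, an anti-inflammatory annexin, was 1.76-fold higher (adjusted p = 0.0408). Lcn2 (neutrophil gelatinase-associated lipocalin) went the other way, at 11.69, 11.79 and 11.68 against 12.24, 12.36, 12.62 and 12.68, 1.69-fold higher with AML1-ETO (adjusted p = 0.0154). Without NUP98-HOXA9 1 the adjusted p of Lcn2 was 0.0626. The other secondary granule proteins Ltf, Camp and Ngp did not pass, with differences of 0.69, −0.30 and 0.83. With the tag as a factor, 2 of the 23 were higher with NUP98-HOXA9, beside 239 of all 11377 probe sets.

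Monocyte and macrophage genes showed no shared direction, with 2 of 28 tested higher in NUP98-HOXA9, 3 higher in AML1-ETO and a median of 0.07. Their share past the threshold was 17.9%, beside 8.10% of all genes. Fcgr1, the high-affinity IgG receptor, was at 6.29, 6.04 and 6.40 with NUP98-HOXA9 and under the background on all 4 AML1-ETO arrays (4.14 to 4.78), at least 1.26-fold higher (adjusted p = 0.0219). Lgals3 (galectin 3) was 1.55-fold higher (adjusted p = 0.049). Cd14, the co-receptor for lipopolysaccharide, was at 7.73, 8.24 and 9.49 against 9.28, 11.11, 11.31 and 10.35, 4.07-fold higher with AML1-ETO although 1 array of each group overlapped (adjusted p = 0.0255). Tlr4, the receptor it serves, was 2.81-fold higher with AML1-ETO (adjusted p = 0.0441), also with overlap, and its other probe set did not pass (−0.69, adjusted p = 0.247). Clec4d, a C-type lectin of myeloid cells, was at 10.43, 10.22 and 10.61 against 11.38, 11.40, 11.41 and 11.06, 1.86-fold higher with AML1-ETO (adjusted p = 0.00458). The summed linear level of all 33 monocyte and macrophage genes overlapped between the groups, at 48975 to 60697 and 45808 to 66223.

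Markers of other blood lines moved singly. Ppbp was the 1 gene of 5 tested megakaryocyte and platelet genes to pass (20%, beside 8.10% of all genes). The summed linear level of the 16 markers on the array was 1628 to 2716 with NUP98-HOXA9 and 3456 to 9735 with AML1-ETO, made up mainly of Ppbp and of Pf4 (9.73 and 11.57, adjusted p = 0.111). The defining genes Gata1, Gp5, Gp1bb, Itgb3 and Vwf were under the background on all 7 arrays. In bulk RNA, fewer cells of a type and less RNA per cell cannot be told apart.

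Of 8 tested genes of mast cells, basophils and eosinophils, 1 was higher with NUP98-HOXA9 and 2 with AML1-ETO, beside 3.00% and 5.10% of all genes. Hdc, which makes histamine, was at 6.99, 6.07 and 6.93 with NUP98-HOXA9 and at 8.10, 9.13, 9.41 and 9.81 with AML1-ETO, 5.46-fold higher in the latter (adjusted p = 4.44e-04; −1.57 within tag A, −2.52 outside). Freshly sorted normal GMP had Hdc at 9.92 ± 0.07 (SD, n = 4) and the cultured GFP vector cells at 7.57 ± 0.18 (SD, n = 3). Cpa3 (mast cell carboxypeptidase A) was 3.39-fold higher with AML1-ETO (6.11 ± 0.48 against 7.87 ± 0.90; adjusted p = 0.00833). Fcer1g, the signalling chain shared by Fc receptors, was 2.18-fold higher with NUP98-HOXA9 (9.96 ± 0.29 against 8.84 ± 0.39; adjusted p = 0.00299). The mast cell and basophil genes Fcer1a and Ms4a2 were under the background on all 7 arrays, and the summed level of the 18 markers was 1839 to 2424 with NUP98-HOXA9 and 2012 to 2783 with AML1-ETO. Their part in the Hdc and Cpa3 differences was not tested.

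Only 3 lymphoid genes were tested, and 66.7% of them passed, beside 8.10% of all genes. Cd28, the T cell costimulatory receptor, was at 6.45, 6.43 and 6.62 with NUP98-HOXA9 and under the background with AML1-ETO (4.20 to 5.59), at least 1.51-fold higher (adjusted p = 8.75e-04). It was also 1.73 above the GFP vector (adjusted p = 0.0214). Cd79b, a chain of the B cell receptor, was 1.87-fold higher with AML1-ETO (7.25 ± 0.18 against 8.15 ± 0.21; adjusted p = 0.0121). Tcf4 (E2-2), the E protein of plasmacytoid dendritic cells, was the 1 of 7 tested dendritic cell and MHC class II genes to pass. That is 14.3% of the list, beside 8.10% of all genes. Tcf4 was 1.57-fold higher with AML1-ETO (8.27 ± 0.18 against 8.92 ± 0.21, adjusted p = 0.0193), and 1 of its 4 other tested probe sets passed. The 4 tested erythroid genes did not pass, with adjusted p from 0.575 (Car2) to 0.899 (Epor).

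Immediate early and stress genes were the list with most members higher in AML1-ETO: 11 of 29 tested (37.9%) passed and none was higher with NUP98-HOXA9, beside 5.10% of all genes. The median difference was −0.52, and 25 of the 29 were negative. Klf6, a Kruppel-like factor induced by growth signals, was at 7.43, 7.36 and 7.28 with NUP98-HOXA9 and at 8.78, 8.80, 9.29 and 9.04 with AML1-ETO, 3.07-fold higher (difference −1.62, SE 0.16, adjusted p = 1.04e-04), and 1 of its 2 other probe sets passed. Gadd45g, a stress sensor, was at 7.87, 7.85 and 8.09 against 9.27, 10.32, 10.25 and 9.59, 3.79-fold higher (adjusted p = 0.00246). Dusp2, a phosphatase that switches off MAP kinases, was 4.54-fold higher (5.96 ± 0.79 against 8.14 ± 0.97; adjusted p = 0.00553). Ppp1r15a (GADD34), which restores translation after stress, was 1.94-fold higher (6.65 ± 0.15 against 7.61 ± 0.16; adjusted p = 7.42e-04). Egr1 was at 5.27, 5.28 and 5.23 against 6.44, 8.77, 8.83 and 6.75, at least 3.46-fold higher (adjusted p = 0.0173; −1.17 within tag A, −2.89 outside). This call was lost without NUP98-HOXA9 1 (0.0617), NUP98-HOXA9 2 (0.0568) or AML1-ETO 3 (0.055), and with the tag as a factor (0.167).

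The list's median was −0.40 within tag A and −0.67 outside. Once the tag was a factor, 3 of the 29 genes were higher with AML1-ETO, beside 242 of all 11377 probe sets. When the 7 arrays were fitted alone, 4 were higher with AML1-ETO and 1 with NUP98-HOXA9, beside 179 and 122 of all 11377 probe sets. Fos differed by −2.07 and Jun by −1.08 without passing (adjusted p = 0.0631 and 0.108).

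In the NF-kB and inflammatory list, 7 of 16 tested genes were higher with AML1-ETO and 1 with NUP98-HOXA9 (median −0.41). Of all genes, 5.10% and 3.00% were. Relb, a subunit of the alternative NF-kB pathway, was at 5.82, 5.78 and 6.22 with NUP98-HOXA9 and at 7.94, 7.75, 8.02 and 7.19 with AML1-ETO, 3.45-fold higher (adjusted p = 1.83e-04; −2.14 within tag A, −1.44 outside). Icam1, the adhesion ligand that NF-kB induces, was at 6.56, 6.41 and 6.33 against 7.61, 7.97, 8.38 and 8.33, 3.1-fold higher (adjusted p = 1.04e-04; −1.12 and −1.89). Tnip1, which restrains NF-kB together with A20, was at 8.82, 8.54 and 8.83 against 9.81, 9.70, 9.72 and 9.70, 2-fold higher (adjusted p = 2.04e-04; −1.13 and −0.87). The 4 AML1-ETO arrays agreed closely for Tnip1, with an SD of 0.05. Ccl3 (MIP-1 alpha) was the member higher with NUP98-HOXA9, at 7.53, 8.52 and 8.20 against 6.80, 6.74, 6.06 and 6.44, 2.97-fold (adjusted p = 0.0142). Nfkbia, the inhibitor that NF-kB induces, did not pass (12.27 and 12.09, adjusted p = 0.578). With the tag as a factor, 5 of the 16 were higher with AML1-ETO, beside 242 of all 11377 probe sets. The median of the list was −0.28 within tag A and −0.45 outside.

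**Figure D4:**
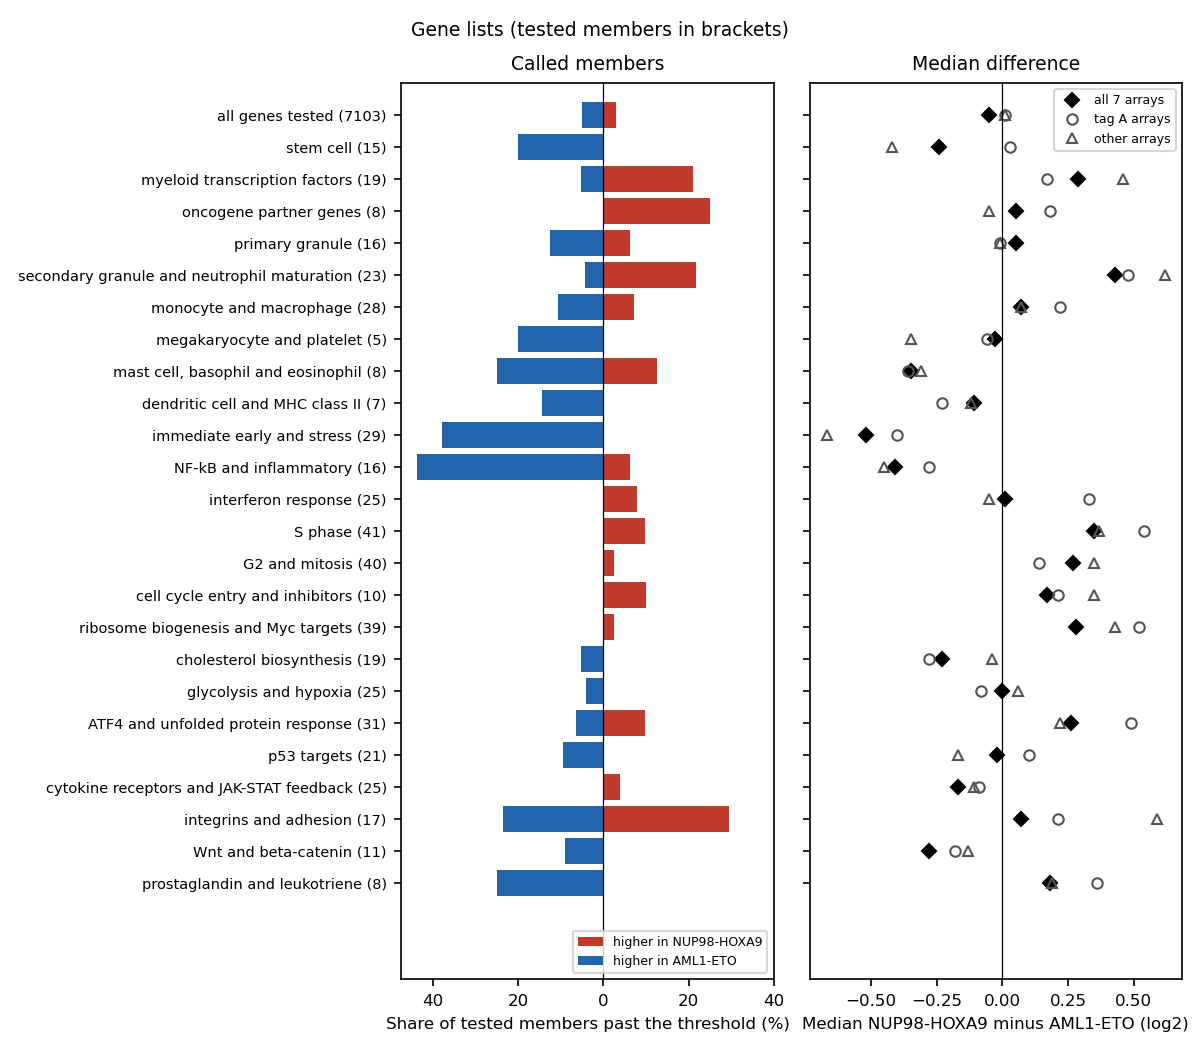
Left, the share (%) of tested members of each gene list past the threshold in each direction, with the number tested in brackets; right, the median difference (log2) of each list over all 7 arrays, within tag A and on the other arrays. Lists with fewer than 5 tested genes are left out. The immediate early (11 of 29) and NF-kB (7 of 16) lists have the longest bars on the AML1-ETO side, and the integrin list has members on both sides (5 and 4 of 17).

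Integrins and adhesion genes changed in both directions: 9 of 17 tested passed (52.9%, beside 8.10% of all genes), 5 higher with NUP98-HOXA9 and 4 with AML1-ETO. Beside Itgb2, Itgb7 and Adgre5, Itgb5, the beta-5 chain that pairs with alpha-V, was at 10.48, 10.38 and 10.30 with NUP98-HOXA9 and at 8.94, 8.98, 9.11 and 8.79 with AML1-ETO. It was 2.7-fold higher with NUP98-HOXA9 (adjusted p = 1.33e-04), by 1.49 within tag A and 1.34 outside, and all 4 of its probe sets passed. Selplg (PSGL-1), the selectin ligand, was 1.88-fold higher with NUP98-HOXA9 (adjusted p = 0.00376). The alpha chains that passed were higher with AML1-ETO. Itgav, the alpha-V chain, was at 7.95, 7.93 and 7.81 against 8.29, 8.81, 9.22 and 9.03, 1.91-fold higher (adjusted p = 0.00946). Itga6, the alpha-6 chain of laminin receptors, was at 9.30, 9.33 and 9.72 against 9.83, 10.65, 10.75 and 10.37, 1.94-fold higher (adjusted p = 0.0121). Cd53, a tetraspanin, was 1.35-fold higher with AML1-ETO (adjusted p = 0.0468). Itgav and its partner Itgb5 thus differed in opposite directions.

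Few proliferation genes passed, all of them higher with NUP98-HOXA9. In the G2 and ribosome biogenesis lists their share was under the 3.00% of all genes that were higher there. Of 41 tested S phase genes, 4 were higher with NUP98-HOXA9 (9.76%, beside 3.00% of all genes), none with AML1-ETO, and 38 differences were positive (median 0.35; 0.54 within tag A, 0.37 outside). Cdc45, which activates the replicative helicase, was at 9.16, 9.26 and 9.18 against 7.91, 8.31, 7.65 and 8.74, 2.07-fold higher (adjusted p = 0.00437). Mcm6, a subunit of that helicase, was 1.72-fold higher (10.77 ± 0.03 against 9.99 ± 0.35; adjusted p = 0.0116), and both of its probe sets passed. Dut, which clears dUTP, and Fen1, the flap endonuclease, were 1.73-fold and 1.41-fold higher (adjusted p = 0.02 and 0.0411), but the other Fen1 probe set did not pass (0.32, adjusted p = 0.524). AML1-ETO 4 was the highest of its group for Cdc45 (8.74), Mcm6 (10.50), Dut (9.80) and Fen1 (10.96). Without it 11 of the S phase genes tested were higher with NUP98-HOXA9, beside 395 of all 11246 probe sets.

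In the G2 and mitosis list, 1 of 40 tested genes passed, Mki67 (Ki-67), at 11.01, 10.75 and 11.22 with NUP98-HOXA9 and 10.36, 10.46, 10.29 and 10.63 with AML1-ETO (difference 0.56, adjusted p = 0.0389). The list's median was 0.27, and its share past the threshold was 2.5%, beside 8.10% of all genes. Ccnd3 (cyclin D3) was the 1 of 10 tested cell cycle entry genes to pass, a share of 10% that is close to the 8.10% of all genes. It was 1.81-fold higher with NUP98-HOXA9 (8.53 ± 0.24 against 7.68 ± 0.45, adjusted p = 0.0287). Of 39 tested ribosome biogenesis genes and Myc targets, 37 differences were positive with a median of 0.28, yet only Gar1, of the H/ACA ribonucleoproteins, passed (10.03 ± 0.16 against 9.37 ± 0.37; adjusted p = 0.0335). That is 2.56% of the list. Without AML1-ETO 4, 6 ribosome biogenesis genes passed, beside 829 of all 11246 probe sets. Myc itself did not pass (9.03 and 8.43, adjusted p = 0.108).

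Amino acid and stress genes under the transcription factor ATF4 moved on both sides, with 3 of 31 tested higher in NUP98-HOXA9, 2 higher in AML1-ETO and a median of 0.26. The share past the threshold was 16.1%, beside 8.10% of all genes. Asns (asparagine synthetase) was at 10.36, 10.42 and 10.53 against 9.74, 9.57, 8.84 and 9.54, 2.02-fold higher with NUP98-HOXA9 (adjusted p = 0.00833), and both of its probe sets passed. Psat1, of serine synthesis, and Gars, the glycyl-tRNA synthetase, were 1.5-fold and 1.52-fold higher with NUP98-HOXA9 (adjusted p = 0.0171 and 0.037). The other Psat1 probe set did not pass (0.31, adjusted p = 0.73). Slc7a11, the cystine importer, was at 6.03, 6.30 and 6.94 against 7.65, 7.47, 7.29 and 7.52, 2.09-fold higher with AML1-ETO (adjusted p = 0.00499). Xbp1, a transcription factor of the unfolded protein response, was 1.36-fold higher with AML1-ETO (adjusted p = 0.0395).

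Among 21 tested p53 targets, 2 were higher with AML1-ETO and none with NUP98-HOXA9 (median −0.02). This share, 9.52%, is close to the 8.10% of all genes. Pmaip1 (NOXA), a death-promoting BH3 protein, was at 6.17, 6.46 and 6.19 with NUP98-HOXA9 and at 7.51, 8.21, 8.11 and 8.36 with AML1-ETO, 3.42-fold higher (adjusted p = 1.22e-04; −1.20 within tag A, −2.03 outside). Plk2, a Polo-like kinase, was under the background with NUP98-HOXA9 (4.61, 5.19 and 4.91) and at 5.75, 6.51, 6.95 and 6.53 with AML1-ETO, at least 1.44-fold higher (adjusted p = 0.00106).

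Further lists changed at a few genes. The share past the threshold was 8% for interferon response, 4% for cytokine receptors and 25% for prostaglandin genes. It was 4% for glycolysis and hypoxia, 5.26% for cholesterol and 9.09% for Wnt genes, beside 8.10% of all genes. Of 25 tested interferon response genes, Ifitm3 and Irf1 were higher with NUP98-HOXA9, 1.94-fold and 1.63-fold (adjusted p = 0.00652 and 0.00968), and the median was 0.01. Ifitm3 was at 12.67, 12.69 and 12.58 against 11.93, 12.02, 11.69 and 11.12. Of 25 tested cytokine receptors and JAK-STAT feedback genes, only Il4ra, the interleukin 4 receptor chain, passed (8.06 ± 0.04 against 7.26 ± 0.25; adjusted p = 0.00409), while its other tested probe set did not (0.20, adjusted p = 0.368). The prostaglandin receptors Ptgir and Ptger4 were higher with AML1-ETO, by at least 2.19-fold and by 1.5-fold (adjusted p = 0.0101 and 0.0379), although the median of the 8 tested genes of that list was 0.18.

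P4ha2, a collagen prolyl hydroxylase, was the 1 of 25 tested glycolysis and hypoxia genes to pass, 3.42-fold higher with AML1-ETO (6.14 ± 0.54 against 7.91 ± 0.73; adjusted p = 0.0275). Srebf2 (SREBP2), which drives cholesterol synthesis, was the 1 of 19 cholesterol genes to pass, 1.42-fold higher with AML1-ETO (adjusted p = 0.0367), and its other probe set did not (−0.01, adjusted p = 0.984). Jup (plakoglobin), the 1 of 11 tested Wnt and beta-catenin genes to pass, differed by −0.74 (adjusted p = 0.037) with both means under the background.

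Across all 76 named genes past the threshold, the sizes within tag A were mostly smaller than those outside. The difference was larger outside tag A for 50 of the 76 and for 21 of the 24 largest, and it was under 0.5 in size within tag A for 7. When arrays were left out 1 at a time, 31 of the 76 lost the call without at least 1 array, with adjusted p from 0.0503 to 0.227. These were Il1r2, Ppbp and Egr1 among the 24 largest and, of the list members, Hoxa7, Cd34, Bmi1, Sox4, Egr2, Gstm1, Ctsc, Lyz2, Lcn2, Fcgr1, Cd14, Tlr4, Cpa3, Cd79b, Tcf4, Mcm6, Dut, Fen1, Mki67, Ccnd3, Gar1, Srebf2, P4ha2, Psat1, Gars, Jup, Ptgir and Ptger4. Of the 24 largest, 16 passed in each of the 3 fits that took the tag into account as planned, among them Apoc2, Hoxa5, Hoxa9, Arhgef18, Pkib, Pilra, Itgb2 and Adgre5 on the NUP98-HOXA9 side and Serpinb2, Cxcl2, Ctla2b, Itm2a, Gpx3, Hdc, Slc39a4 and Dab2 on the AML1-ETO side.

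**Figure D5:**
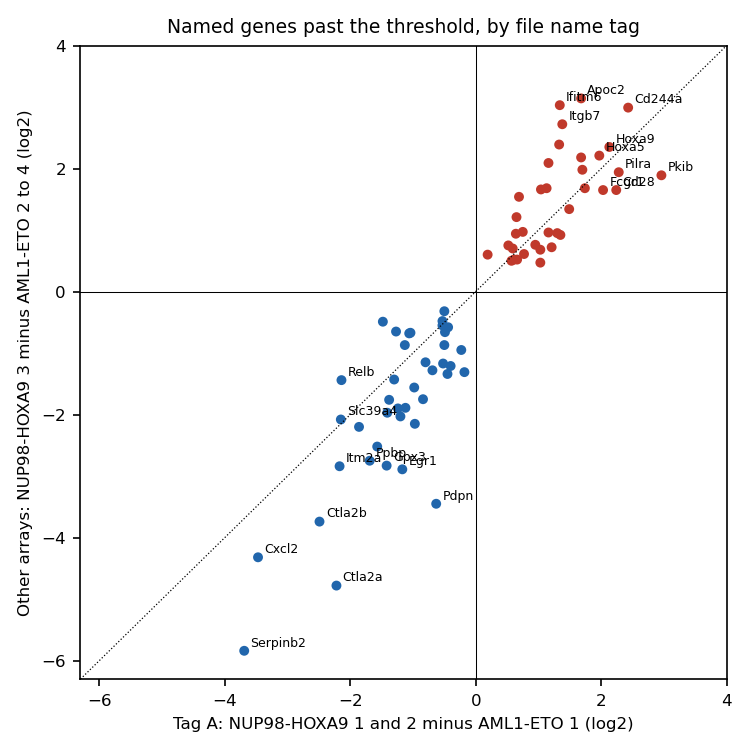
Difference of NUP98-HOXA9 minus AML1-ETO (log2) for the 76 named genes past the threshold, within tag A (2 arrays against 1, horizontal) and on the other arrays (1 against 3, vertical); each point is 1 gene, and the dotted line marks equal differences. Every point lies in the quadrant of its own sign on both axes, and Pdpn (−0.63 and −3.45) and Serpinb2 (−3.69 and −5.84) lie far below the line.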

How the data were processed

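Total RNA of each sample had been hybridised to an Affymetrix Mouse Genome 430A 2.0 array. The deposited values are log2 expression estimates that the authors made from the scanner's CEL files (MAS5 software) with GCRMA 2.4.1, which corrects background by probe sequence and normalizes between arrays, per the submitters' processing notes and design text; they also state that outlier arrays were removed. The table holds 22690 probe sets, of which 64 controls were left out; 20380 have 1 gene symbol, 691 several and 1555 none in the platform annotation, and genes are named only through the first kind. Of these, 20351 matched the RefSeq gene table (GRCm38.p6).

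In R 4.3.3 with limma 3.58.1, 1 mean per group was fitted to the 14 transduced arrays (NUP98-HOXA9 3, AML1-ETO 4, GFP 3, MOZ-TIF2 4), the contrast NUP98-HOXA9 minus AML1-ETO was tested with eBayes, and p was adjusted by Benjamini-Hochberg. Every adjusted p in the text is from such a limma fit unless another test is named. Probe sets over 60 (linear) on at least 2 arrays of either group were tested, after the submitters' filter; their present calls were not used here. Named genes are the 12 largest differences each way among genes past 0.05 without overlap of the arrays, up to 4 genes with the smallest adjusted p of each of 28 lists (713 genes, 641 on the array), and Hoxa9, Nup98, Runx1 and Runx1t1; others are named as members of counts of 5 or fewer, as list members that did not pass, or as chosen after their values were seen. The comparison, its lists and its rules were chosen with earlier results of these data known. Lists are described by counts and medians, with no set test. The NF-kB motif was shortened by its last letter after motif shares had been seen, so its shares are for the shorter core.

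On simulated arrays with 11377 probe sets, the fit recovered 77 of 100 differences of 1 and 99 of 100 of 2 (log2), with 13 unchanged probe sets called. The simulated noise was normal, independent between probe sets and free of any tag effect. These counts therefore do not carry over to the real arrays, of which those of the compared groups split by tag along the second principal component. The number of arrays limits the precision. Correlations of same-numbered arrays' deviations from their group means were 0.49, −0.43 and 0.22. The deviations also follow the tag, since NUP98-HOXA9 1 and 2 both correlated best with AML1-ETO 1 (0.49 and 0.38). Whether the numbers pair the samples therefore cannot be told from them. Alternatives were the arrays fitted, the filter, quantile normalization, each array left out, a replicate block, the tag, eBayes with trend, the Welch test of the submitters' design and the mean of a gene's probe sets.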

Additional observations from a re-analysis of the deposited data

Results flagged for a closer look

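Among the 79 named genes, 1 of the 4 AML1-ETO arrays stood far from the other 3 by Dixon's criterion for 7; by chance about 1 group in 20 would be. AML1-ETO 1, the tag A array, was the one apart for 3 of them. It had Gpx3 at 8.26, against 9.86 to 9.92 on the other AML1-ETO arrays. Hoxa7 was at 7.02 on that array and at 6.75 to 6.78 on the others. Fcgr1 was at 4.14 there and at 4.73 to 4.78 on the others, all under the background. AML1-ETO 2 had Adam8 at 7.70, against 6.32 to 6.51. AML1-ETO 3 had Ppp1r15a at 7.85, against 7.50 to 7.55. AML1-ETO 4 had Clec4d at 11.06, against 11.38 to 11.41, and Fen1 at 10.96, against 10.45 to 10.52. The NUP98-HOXA9 group, with 3 arrays, was not tested in this way.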

How the results depend on the processing

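The 823 probe sets past the threshold became 301 when the 7 arrays were fitted alone, 499 with all 24 arrays, 481 with the tag as a factor in 14 arrays and 311 with it in 24. Taking tag A against the rest as a factor, chosen after seeing the data, gave 1363. Leaving out 1 array at a time gave 408 to 1393. The methods' t-test (Welch) called 0, with 1470 at an unadjusted p under 0.05, beside 2455 by limma. The other settings stayed within 1.5 times, at 776 to 1085. A fit with the replicate number as a block called 776 and kept 69 of the 76 named genes; the numbers share no stated source, only NUP98-HOXA9 1 correlated best with its own number (0.49), NUP98-HOXA9 2 best with AML1-ETO 1 (0.38) and NUP98-HOXA9 3 best with AML1-ETO 2 (0.55).

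Of the 76 named genes past the threshold, 45 passed whichever array was left out, 30 in all 3 planned fits by tag, and 25 under every alternative but the methods' t-test. Runx1, which did not pass, changed sign within tag A (0.15, adjusted p = 0.705); no named gene past the threshold changed sign. The causes were not tested. A group mean under the background limits Hoxa5, Pilra, Serpinb2, Cxcl2, Ctla2a, Itm2a, Egr1, Pdpn, Sox4, Fcgr1, Cd28, Plk2 and Ptgir to bounds. Egr2 and Jup, with both means under it, have no fold.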

Other observations

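Gene families that no list held as a whole were read after their values had been seen, and are given as descriptions beside 3.00% of all genes higher with NUP98-HOXA9 and 5.10% higher with AML1-ETO. Among 22 tested tRNA synthetases, 3 were higher with NUP98-HOXA9 and none with AML1-ETO (median 0.25). All 4 tested Ifitm genes were higher with NUP98-HOXA9: Ifitm1 by 1.79 (limma adjusted p = 4.92e-04), Ifitm2 by 0.85 (0.0339), Ifitm3 by 0.96 (0.00652) and Ifitm6 by 2.16 (7.20e-04). Of 6 tested Cd300 and Pilr receptors, which carry or pair with inhibitory and activating motifs on myeloid cells, Pilra (1.91), Pilrb1 (1.41), Cd300a (1.17) and Cd300c2 (0.84) were higher with NUP98-HOXA9. The Fc gamma receptor Fcgr4 was higher there too (1.58, adjusted p = 0.00453), while Fcgr2b and Fcgr3 did not pass. The AML1-ETO mean of Fcgr4 (5.88) was just under the background, so its fold was at least 2.94.

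On the AML1-ETO side, 3 of 5 tested Smad genes were higher: Smad1, a transducer of BMP signals (difference −0.82, adjusted p = 9.01e-04), and the inhibitory Smad6 (−1.04, 7.01e-04) and Smad7 (−0.81, 0.0372). The MAGE-family genes Maged1 and Maged2 differed by −2.07 (0.00158) and −2.11 (0.001). Their differences were −0.81 and −1.15 within tag A, beside −2.48 and −2.46 outside. Of 4 tested Armcx genes, Armcx1, Armcx2 and Armcx4 differed by −1.25, −0.98 and −1.48 (0.0259, 0.0169 and 0.0399). Armcx3 did not pass (0.01). Within tag A the differences of Armcx1, Armcx2 and Armcx4 were only −0.39, −0.23 and −0.09, beside −1.22, −1.54 and −1.92 outside. Both means of Armcx1 and of Armcx4 were under the background, and the Armcx1 arrays overlapped. The caveolins Cav1 and Cav2 (−1.33 and −0.94), the metallothioneins Mt1 and Mt2 (−0.80 and −1.74), and Serpinb8 (−2.17, adjusted p = 6.52e-04) were higher with AML1-ETO. So were 3 of 7 tested toll-like receptors, Tlr4, Tlr6 and Tlr7 (−1.49, −1.05 and −1.17). The NUP98-HOXA9 means of Smad6, Maged1, Maged2, Cav1, Serpinb8 and Tlr6 were under the background (4.08 to 5.18), so their folds are bounds. These were at least 1.24, 1.18, 2.44, 1.53, 1.33 and 1.06, in that order.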
